A study of Mus musculus with 12 samples.

Results

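The effect of hepatocyte RXRα deficiency was examined in livers of mice on a retinoic acid (RA) diet, as the difference between the 3 arrays titled as RA-treated RXRα-KO (KO_RA) and the 3 titled as RA-treated wild type (WT_RA). All 12393 genes with a probe set of their own were measured, and 6 of the 12 arrays of the series belong to this comparison. WT_RA mice carried an intact Rxra gene, and KO_RA mice carried Rxra alleles whose exon 4, which encodes the DNA binding domain, was flanked by LoxP sites and removed by Cre recombinase under the albumin promoter. Both groups ate a diet holding 150 mg of all-trans RA per kg for 7 days. The other 6 arrays came from wild type (WT) and RXRα-KO (KO) mice on the normal diet without added RA. All mice were C57BL/6 males, and the wild type mice were 12 weeks old. The knockout is restricted to cells with an active albumin promoter, which are hepatocytes, and a shortened RXRα that retains the ligand binding domain can still be made there. Expression is given as log2 RMA values of Affymetrix mouse genome arrays, 1 array per mouse liver, so that a difference of 1 is a change of 2-fold. Differences are KO_RA minus WT_RA ± SE with n = 3 arrays per group, and a gene is called higher or lower at limma's adjusted p under 0.05.

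RXRα is a ligand-dependent nuclear receptor and the main RXR of hepatocytes. It binds DNA chiefly as a heterodimer, and its partners include the receptors for retinoic acid (RAR), fatty acids (PPARα), oxysterols (LXR), bile acids (FXR), xenobiotics (PXR and CAR) and thyroid hormone. Depending on the partner, the dimer binds direct repeats of a short element with a fixed spacing: repeats spaced by a single base (DR1) bind PPAR-RXR dimers, and wider spacings bind dimers with the thyroid hormone receptor or LXR (DR4) or with RAR (DR5). All-trans RA is a ligand of RAR, and the liver both stores retinoids and breaks down RA.

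Array medians ranged from 6.26 to 6.35, and rank correlations within groups ranged from 0.976 to 0.994. WT_RA 3 and KO 1 stood apart, with an Actb 3' control at 9.40 and 9.12 against 12.1 to 12.9 elsewhere, and results that rest on WT_RA 3 are given with and without it. The hepatocyte markers Alb, albumin, and Apoa1, an apolipoprotein, were high on all arrays of the comparison, with Alb at 14.02, 13.95 and 13.92 in WT_RA and 13.83, 13.88 and 13.94 in KO_RA. Of 21 such markers, 0 were called by limma between KO_RA and WT_RA, with 2 at an unadjusted p under 0.05, beside 17.8% of all genes. In bulk tissue, fewer cells of a type and less RNA per cell cannot be told apart. The titles number the samples of a group as biological replicates. The p-values rest on the spread between animals within groups, pooled over all 12 arrays, including those on the normal diet.

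Between KO_RA and WT_RA, 490 of 12393 genes (3.95%) were called, with 115 (0.928%) higher and 375 (3.03%) lower in KO_RA. Lower genes thus outnumbered higher genes, while the median difference of all genes was 0.01. The called changes had a median size of 0.68, and 33 of the higher and 80 of the lower genes changed by 1 or more on the log2 scale. After a further quantile normalization the split was 157 higher and 288 lower. The 3 KO_RA arrays lay entirely above or below the 3 WT_RA arrays for 3172 genes (25.6%), 1395 above (11.3%) and 1777 below (14.3%). The number of calls depended on the arrays used. Without KO_RA 1, 170 genes were called, without WT_RA 3 216, without KO_RA 3 222, without WT_RA 1 284 and without WT_RA 2 324. Of the 490 genes, 135 were called in all 12 fits that left out 1 array, 25 of them higher and 110 lower. For called genes described below that are outside these 135, the arrays whose omission ended the call are named. List counts below are to be read beside the shares of all genes, 0.928% called higher and 3.03% called lower. Those at an unadjusted p under 0.05 are to be read beside 2208 of all genes (17.8%).

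**Figure D1:**
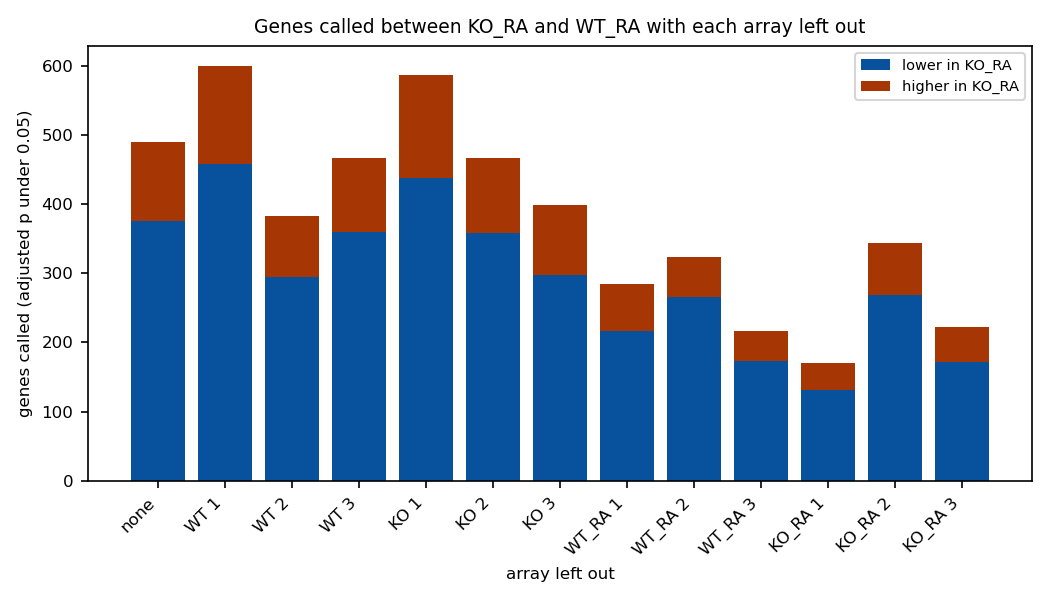
Number of genes called higher (upper, orange) or lower (lower, blue bar) in KO_RA than in WT_RA with all arrays and with each array left out in turn (x axis). The total was 490 with all arrays and ranged from 170 without KO_RA 1 to 599 without WT 1, and the lower genes outnumbered the higher genes in every fit.

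None of the RXR genes was called with all 12 arrays. Rxra read 10.49, 10.20 and 9.997 on WT_RA 1 to 3 and 10.91, 10.76 and 10.85 on KO_RA 1 to 3, so the KO_RA arrays lay above the WT_RA arrays, but the difference of 0.61 ± 0.18 was not called (adjusted p = 0.0911). It was called without KO 1 (adjusted p = 0.0321), with the 6 RA arrays alone (adjusted p = 0.0464), with array weights (adjusted p = 0.0207) and after a further quantile normalization (adjusted p = 0.0337). On the normal diet Rxra read 10.82, 10.51 and 10.37 in WT and 10.11, 10.66 and 10.84 in KO, and these groups overlapped. A second Rxra probe set differed by 0.58 under RA. Since transcripts with the ligand binding domain are still made in the knockout, these probe sets do not check the deletion unless they lie in exon 4, and their position in the gene was not examined here. The other RXR genes did not pass the test either, with differences of -0.04 ± 0.11 for Rxrb and 0.05 ± 0.11 for Rxrg, and the direction of both changed under some settings.

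Of 33 measured genes for RXRs, their partners and coregulators, 1 was called, beside 3.95% of all genes. Pparg, which encodes the PPAR of fat cells, read 6.57, 6.46 and 6.59 in WT_RA and 5.97, 5.98 and 5.94 in KO_RA. All KO_RA values were below all WT_RA values, and Pparg fell by 0.58 ± 0.09 (adjusted p = 0.00553), also in all 12 fits with 1 array left out. It was called on the normal diet as well (difference -0.51, adjusted p = 0.0239). Ppara, whose product is the fatty acid sensor of hepatocytes, was named after its values were seen. Its values were 9.91, 9.88 and 5.92 in WT_RA and 9.69, 10.23 and 10.61 in KO_RA, so that the groups overlapped and WT_RA 3 lay far below the other 5. The difference of 1.61 ± 0.98 (adjusted p = 0.432) became 0.28 (adjusted p = 0.901) without WT_RA 3. KO 1, the other array that stood apart, was the low array of the KO group at 6.35, against 9.18 and 9.44.

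Among 33 measured genes of retinoid handling and RAR response, 3 were lower and 1 higher in KO_RA, beside 3.03% and 0.928% of all genes. Cyp26a1, the hydroxylase that breaks down RA and is itself a target of RAR, read 12.54, 12.58 and 12.37 in WT_RA and 11.39, 11.34 and 11.15 in KO_RA. The groups were separated by more than their spread, and Cyp26a1 fell by 1.20 ± 0.18 (adjusted p = 0.00376), a WT_RA level 2.30 times that of KO_RA. On the normal diet both genotypes were far lower, at 7.49, 8.36 and 8.11 in WT and 8.43, 8.43 and 8.69 in KO, and the knockout difference there was 0.53 (adjusted p = 0.180). The difference between the diets in the knockout effect, -1.73, did not pass the test (adjusted p = 0.0566).

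The start region of Cyp26a1, at chr19:37697558-37697857 (plus strand) of GRCm38.p6 and reaching from 250 bases before to 50 bases after the start site, is shown because Cyp26a1 is a direct target of RAR and was called lower in KO_RA. The capitals mark its match to the DR5 repeat, 32 bases before the start site.
Cyp26a1: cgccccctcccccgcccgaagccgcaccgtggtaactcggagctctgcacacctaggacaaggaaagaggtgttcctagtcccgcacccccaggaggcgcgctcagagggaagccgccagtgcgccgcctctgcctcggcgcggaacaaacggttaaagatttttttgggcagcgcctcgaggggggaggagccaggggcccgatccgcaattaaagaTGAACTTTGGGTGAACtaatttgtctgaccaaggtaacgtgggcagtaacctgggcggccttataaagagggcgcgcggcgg

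Trim24, a coregulator that binds retinoic acid receptors, was also lower. It read 8.75, 9.35 and 9.10 in WT_RA and 7.40, 8.14 and 7.48 in KO_RA, without overlap, and fell by 1.39 ± 0.21 (adjusted p = 0.00433). Its second probe set differed by -0.42 and was not called. Rarb, another target of RAR, read 6.16, 6.44 and 6.20 in WT_RA and 6.32, 5.82 and 6.52 in KO_RA, and the overlapping groups differed by -0.05 ± 0.17 (adjusted p = 0.920). Crabp2, which binds RA, and Lrat, which esterifies retinol, did not pass the test, with differences of 0.24 ± 0.10 and 0.15 ± 0.09. The calls of Rdh16, a retinol dehydrogenase (-1.23), and Rdh5, a retinol dehydrogenase best known from the eye (0.52), were lost with 1 array left out, Rdh16 in 10 of the 12 fits, all but those without WT 1 and KO_RA 3 (adjusted p up to 0.148) and Rdh5 in 9 of the 12 fits, all but those without WT 1, KO 1 and KO 2 (adjusted p up to 0.138). Rdh16f2, a relative of Rdh16 outside the list, was among the largest rises. It read 10.13, 8.57 and 8.71 in WT_RA and 11.27, 11.46 and 11.33 in KO_RA, and the difference of 2.22 ± 0.32 (adjusted p = 0.00290) was called in all 12 fits.

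Among the lists, targets of PPARα had the highest share of lower genes with all arrays, while without KO_RA 1 the share was higher for mitochondrial fatty acid oxidation, described below. Of 51 measured, 18 were lower and 0 higher in KO_RA, beside 3.03% of all genes called lower, and the median difference was -0.49, beside 0.01 over all genes. On the normal diet 9 members were lower, beside 0.831% of all genes, with a median of -0.20. With 1 array left out, the number of lower members ranged from 11 to 19. It was 11 only without KO_RA 1, and 17 without WT_RA 3. Calls lost without other arrays are named below. The median was -0.57 without WT_RA 3, the array with the low Ppara value.

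Acaa1b, a peroxisomal thiolase that completes the shortening of long acyl chains, read 11.91, 10.91 and 10.92 in WT_RA and 7.93, 7.56 and 8.42 in KO_RA. The lowest WT_RA array lay above the highest KO_RA array by more than the range within either group, and Acaa1b fell by 3.28 ± 0.34 (adjusted p = 4.50e-04). The level in WT_RA was thus 9.71 times that in KO_RA. Vnn1, which releases pantothenic acid and cysteamine from pantetheine, read 8.19, 8.28 and 8.54 in WT_RA and 5.77, 6.06 and 5.03 in KO_RA. It did not overlap between the groups and fell by 2.72 ± 0.29 (adjusted p = 4.86e-04). A further 9 members fell in all 12 fits that left out 1 array. Among them were Aldh3a2, which oxidizes fatty aldehydes (-1.77), Decr2 and Eci2, auxiliary enzymes for unsaturated acyl chains (-1.73 and -1.36), and Fitm1, which takes part in lipid droplet formation (-0.93). Slc27a2, a fatty acid transporter and acyl-CoA synthetase of very long chains, fell by 0.81.

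Fabp1, the abundant fatty acid binding protein of the liver cytosol, read 13.48, 12.90 and 12.998 in WT_RA and 12.05, 10.37 and 12.27 in KO_RA. The groups did not overlap, though KO_RA 2 was much lower than the other KO_RA arrays, and the fall of 1.56 ± 0.37 was called (adjusted p = 0.0368). On the normal diet Fabp1 read 13.49, 13.64 and 13.55 in WT and 13.41, 13.34 and 13.45 in KO (difference -0.16, adjusted p = 0.853), and the effects on the 2 diets were not called different (adjusted p = 0.329). Of the 18 lower members, the calls of 7 were lost with 1 array left out. These were Cpt2, which releases acyl chains from carnitine (-0.67), without KO_RA 1 (adjusted p = 0.0576), and Hadhb, the thiolase subunit of the trifunctional protein (-0.84), without WT_RA 3 or KO_RA 1 (adjusted p up to 0.0556). Plin5 and Plin4, coats of lipid droplets (-1.59 and -0.44), were not called without WT_RA 1, KO_RA 1 or KO_RA 3 (adjusted p up to 0.0784) and in 11 of the 12 fits, all but those without KO 1 (adjusted p up to 0.172), respectively. Retsat, retinol saturase (-1.38), was not called without WT_RA 1, WT_RA 2, KO_RA 1 or KO_RA 2 (adjusted p up to 0.0729), and Hsdl2, a peroxisomal dehydrogenase-like protein (-0.67), in 7 of the 12 fits, all but those without WT 1, WT 3, WT_RA 3, KO 1 and KO 2 (adjusted p up to 0.139). Fabp1 itself was not called in 7 of the 12 fits, all but those without WT 1, KO 1, KO 2, KO_RA 2 and KO_RA 3 (adjusted p up to 0.129), and without KO_RA 2 its difference was -0.96.

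The start region of Fabp1 at chr6:71199629-71199928 (plus strand) of GRCm38.p6 is shown because Fabp1 alone among the 17 lower PPARα targets with a window holds a DR1 match there, 67 bases before the start site and in capitals. Among the 25 PPARα targets with a window that were not called, 1 also held a DR1 match, beside 2.5% of all windows.
Fabp1: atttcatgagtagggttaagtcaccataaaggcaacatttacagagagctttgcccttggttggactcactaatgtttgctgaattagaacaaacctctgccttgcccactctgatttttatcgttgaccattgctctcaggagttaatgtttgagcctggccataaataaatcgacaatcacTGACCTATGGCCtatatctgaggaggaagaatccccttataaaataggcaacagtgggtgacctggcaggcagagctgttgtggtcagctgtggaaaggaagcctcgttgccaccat

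Several of the best known PPARα targets did not pass the test. Cyp4a14, a fatty acid omega-hydroxylase, read 9.35, 10.19 and 5.42 in WT_RA and 4.90, 7.20 and 4.62 in KO_RA, and the difference of -2.74 ± 1.003 was within the spread of these overlapping groups (adjusted p = 0.166). WT_RA 3 was again the low WT_RA array, and without it the difference was -4.19 and was called (adjusted p = 0.00652), as with array weights (adjusted p = 0.0203). Differences were -0.34 ± 0.19 for Cpt1a, which commits acyl chains to mitochondrial import, -0.95 ± 0.41 for Angptl4, an inhibitor of lipoprotein lipase, 0.69 ± 0.26 for Pdk4, an inhibitor of pyruvate oxidation, and 0.19 ± 0.10 for Fgf21, a hormone of fasting. Crat, the carnitine acetyltransferase, had the largest positive difference of the list at 0.87 ± 0.24 (adjusted p = 0.0673). Of these genes Pdk4 was called higher without KO_RA 2 (adjusted p = 0.0168) and Crat without WT 1 (adjusted p = 0.0494), and with the mean of all probe sets Cpt1a was called lower (adjusted p = 0.0330) and Crat higher (adjusted p = 0.0193).

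**Figure D2:**
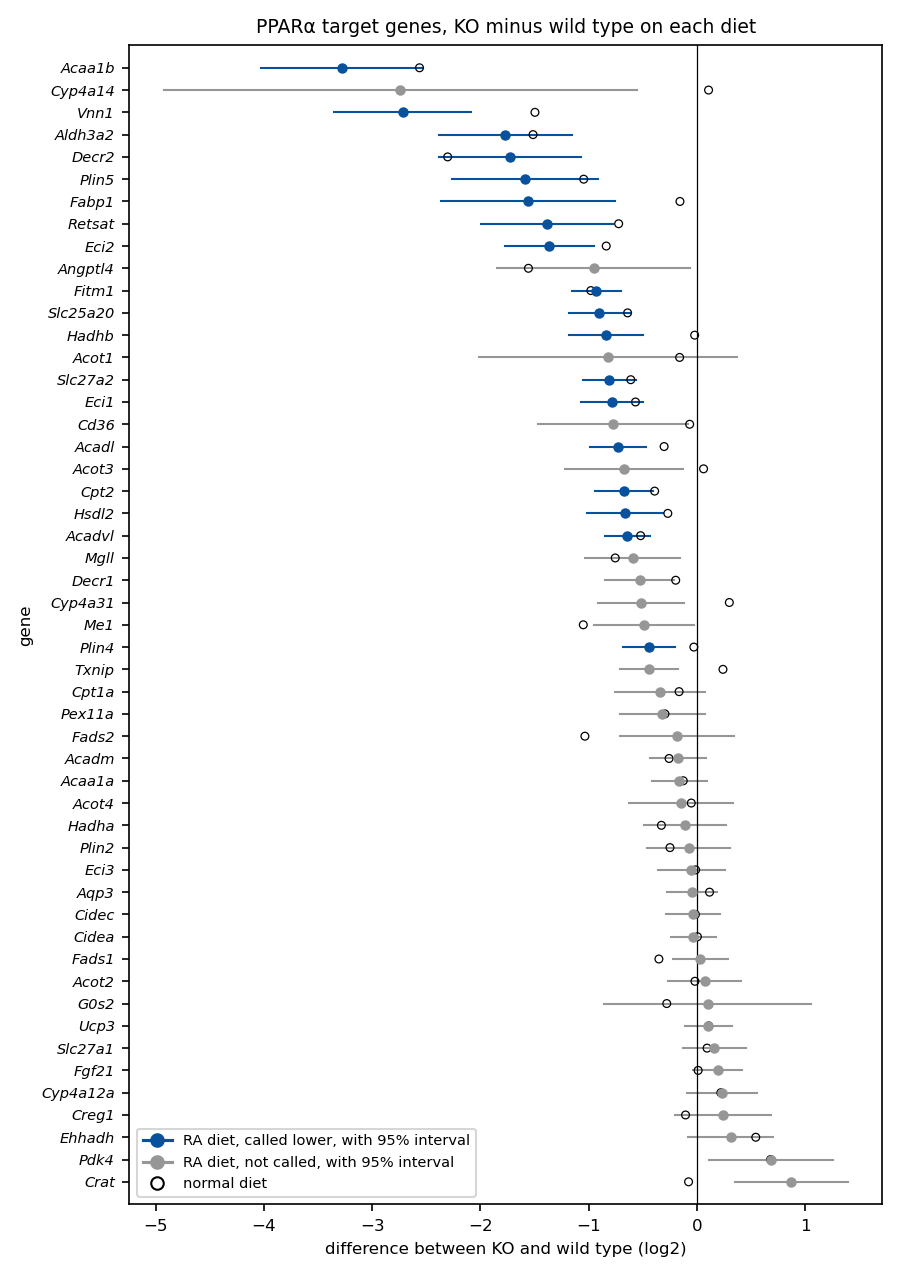
Differences between KO and wild type (x axis, log2) for the 51 PPARα target genes (y axis), filled points with 95% intervals for the RA diet and open circles for the normal diet. The 18 called genes (blue) lie between -3.28 for Acaa1b and -0.44 for Plin4, and the interval of Cyp4a14 is among the widest.

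Many PPARα targets are enzymes of mitochondrial fatty acid oxidation. Of 26 genes of this pathway, 8 were lower and 0 higher (median -0.23), beside 3.03% and 0.928% of all genes. The count was 6 without KO_RA 1. Slc22a5, the carnitine importer of the cell membrane, read 8.74, 8.47 and 8.18 in WT_RA and 7.15, 7.40 and 7.23 in KO_RA and fell by 1.21 ± 0.15 (adjusted p = 0.00134), with no overlap between the groups. Slc25a20, which carries acylcarnitines through the inner membrane, fell by 0.90 ± 0.13. The acyl-CoA dehydrogenases of very long and long chains, Acadvl and Acadl, fell by 0.64 and 0.73, whereas Acadm, that of medium chains, differed by -0.17 ± 0.12 (adjusted p = 0.487). A dimmer probe set of Acadl differed by 0.18. Eci1 and Eci2, which shift double bonds, fell by 0.78 and 1.36. Hadha, the partner subunit of Hadhb in the trifunctional protein, differed by -0.11 ± 0.17 and was not called.

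In peroxisomes, 4 of 38 genes were lower and 0 higher, beside 3.03% and 0.928% of all genes. The median was -0.12, or -0.06 after a further quantile normalization, and the lower genes were Acaa1b, Decr2, Amacr and Ech1. Amacr, a racemase for branched acyl chains and bile acid intermediates, fell by 0.50, and Ech1, a dienoyl-CoA isomerase, by 0.96, the latter not called without WT_RA 1 (adjusted p = 0.0510). Without WT_RA 3 the count rose to 7. Acaa1a, the close relative of Acaa1b, differed by -0.16 ± 0.12 (adjusted p = 0.519). Of 48 genes of oxidative phosphorylation, 41 had a negative difference with a median of -0.11, but only Cycs, cytochrome c, was called (-0.53), and not without WT_RA 3 or KO_RA 3 (adjusted p up to 0.0547). The median of this list was -0.06 after a further quantile normalization. Of 5 measured genes of ketone body formation 0 were called by limma, with 1 at an unadjusted p under 0.05.

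Genes of drug metabolism that respond to PXR and CAR included 11 lower and 2 higher members of 57, beside 3.03% and 0.928% of all genes, with a median of -0.12, or -0.20 without WT_RA 3. On the normal diet 6 were lower and 3 higher, beside 0.831% and 0.484%. Cyp2c29, an abundant P450 of drugs and arachidonic acid, read 12.78, 12.52 and 12.41 in WT_RA and 10.18, 9.67 and 9.61 in KO_RA. The values did not overlap, the spread in each group was small, and Cyp2c29 fell by 2.75 ± 0.20 (adjusted p = 5.41e-05). Fmo5, a flavin monooxygenase, read 12.53, 12.40 and 12.46 in WT_RA and 10.26, 10.55 and 10.77 in KO_RA and fell by 1.93 ± 0.18 (adjusted p = 2.14e-04), with -2.15 at its second probe set. The groups were again clearly apart. Cyp2b10, the P450 by which CAR activity is usually read, had values of 8.24, 8.37 and 7.40 in WT_RA and 6.24, 6.12 and 6.26 in KO_RA and fell by 1.79 ± 0.25 (adjusted p = 0.00290). Its other probe sets differed by -2.36 and -2.44.

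Ces1g, a carboxylesterase, fell by 2.10 ± 0.35, and Ugt2b1 and Ugt2b34, which conjugate glucuronic acid, fell by 1.26 and 0.88. These calls held in all 12 fits with 1 array left out. Ces2a, another carboxylesterase, went the other way, with 8.52, 7.80 and 9.83 in WT_RA and 10.53, 10.91 and 10.62 in KO_RA. WT_RA 3 was the highest WT_RA array, the groups did not overlap, and Ces2a rose by 1.97 ± 0.40 (adjusted p = 0.0199). The call of Ces2a was lost without WT_RA 1, WT_RA 2, KO_RA 1, KO_RA 2 or KO_RA 3 (adjusted p up to 0.0716). Further lower genes of the list were Gsta2, a glutathione transferase (-1.69), Ces1e, a carboxylesterase (-1.43), Meg3, a noncoding RNA (-1.56), and Ugt2b5, a glucuronosyltransferase (-0.41). Their calls were lost with 1 array left out, Gsta2 without KO_RA 1 (adjusted p = 0.0691), Ces1e without KO_RA 2 (adjusted p = 0.0565), Meg3 without KO_RA 1 (adjusted p = 0.0638) and Ugt2b5 in 7 of the 12 fits, all but those without WT 1, WT 3, KO 1, KO 2 and KO 3 (adjusted p up to 0.125). Cyp3a11, the main PXR target among the P450s, differed by -0.10 ± 0.11 (adjusted p = 0.712), and the receptor genes Nr1i2 (PXR) and Nr1i3 (CAR) differed by -0.38 ± 0.22 and 0.14 ± 0.17, all without passing the test.

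P450s that oxidize arachidonic acid were lower for 6 of 24 measured genes and higher for 0, beside 3.03% and 0.928% of all genes. Their median was -0.23. Beside Cyp2c29 the lower genes were Cyp2c37 (-2.05), Cyp2c50 (-2.02), Cyp2c38 (-0.90), Cyp2c70 (-0.43) and Cyp2j5 (-0.40). The direction of Cyp2j5 turned with the mean of its probe sets (0.05), since its second probe set differed by 0.51. Cyp2c37 read 6.84, 6.62 and 6.29 in WT_RA and 4.64, 4.48 and 4.47 in KO_RA, near the floor of the array, and was called in all 12 fits. For Cyp2c50 the values were 11.53, 11.45 and 11.44 in WT_RA and 9.55, 8.90 and 9.91 in KO_RA, with no overlap. The other calls were lost with 1 array left out, Cyp2c50 without KO_RA 1 or KO_RA 2 (adjusted p up to 0.0546), Cyp2c38 without WT_RA 1, WT_RA 3, KO_RA 1 or KO_RA 3 (adjusted p up to 0.0998), Cyp2c70 in 8 of the 12 fits, all but those without WT 1, WT 2, KO 1 and KO 2 (adjusted p up to 0.165) and Cyp2j5 without WT_RA 1, WT_RA 2, WT_RA 3, KO_RA 1 or KO_RA 2 (adjusted p up to 0.130). The count of lower genes was 2 without KO_RA 1 and 3 without WT_RA 1 or KO_RA 2. Cyp2c genes are similar in sequence, so their probe sets may detect more than 1 of them.

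The start region of Cyp2c50 at chr19:40089429-40089728 (plus strand) of GRCm38.p6 is shown as the other described gene with a DR5 match, in capitals and 46 bases before the start site.
Cyp2c50: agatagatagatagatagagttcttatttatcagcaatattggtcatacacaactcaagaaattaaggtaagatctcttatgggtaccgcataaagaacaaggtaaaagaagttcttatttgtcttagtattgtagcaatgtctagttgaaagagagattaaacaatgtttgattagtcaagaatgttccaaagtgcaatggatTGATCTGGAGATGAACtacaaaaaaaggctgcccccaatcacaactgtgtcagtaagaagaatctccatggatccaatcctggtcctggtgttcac

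Genes that mark pericentral hepatocytes were lower for 7 of 31 and higher for 0 (median -0.10), beside 3.03% and 0.928% of all genes. Without WT_RA 3, 5 were lower and the median was -0.16. Besides the Cyp2c genes and Aldh3a2, these were Rhbg, an ammonia channel, which fell by 1.79 ± 0.19 in all 12 fits, and Ahr, the dioxin receptor, with -0.89, not called without WT_RA 3 or KO_RA 2 (adjusted p up to 0.0733). A dimmer probe set of Ahr differed by 0.13. Cyp2e1, Glul and Axin2, which also mark this zone, differed by -0.08, -0.43 and 0.24 and were not called. Of 19 periportal genes, 2 were higher and 1 lower, with Spp2, a secreted phosphoprotein, higher in all 12 fits (0.82). The others were Hal, histidine ammonia-lyase (0.90), and Pigr, the receptor that carries IgA into bile (-0.51), not called without WT_RA 1, WT_RA 3, KO_RA 1 or KO_RA 2 (adjusted p up to 0.0717) and without KO_RA 1 (adjusted p = 0.0630), respectively.

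**Figure D3:**
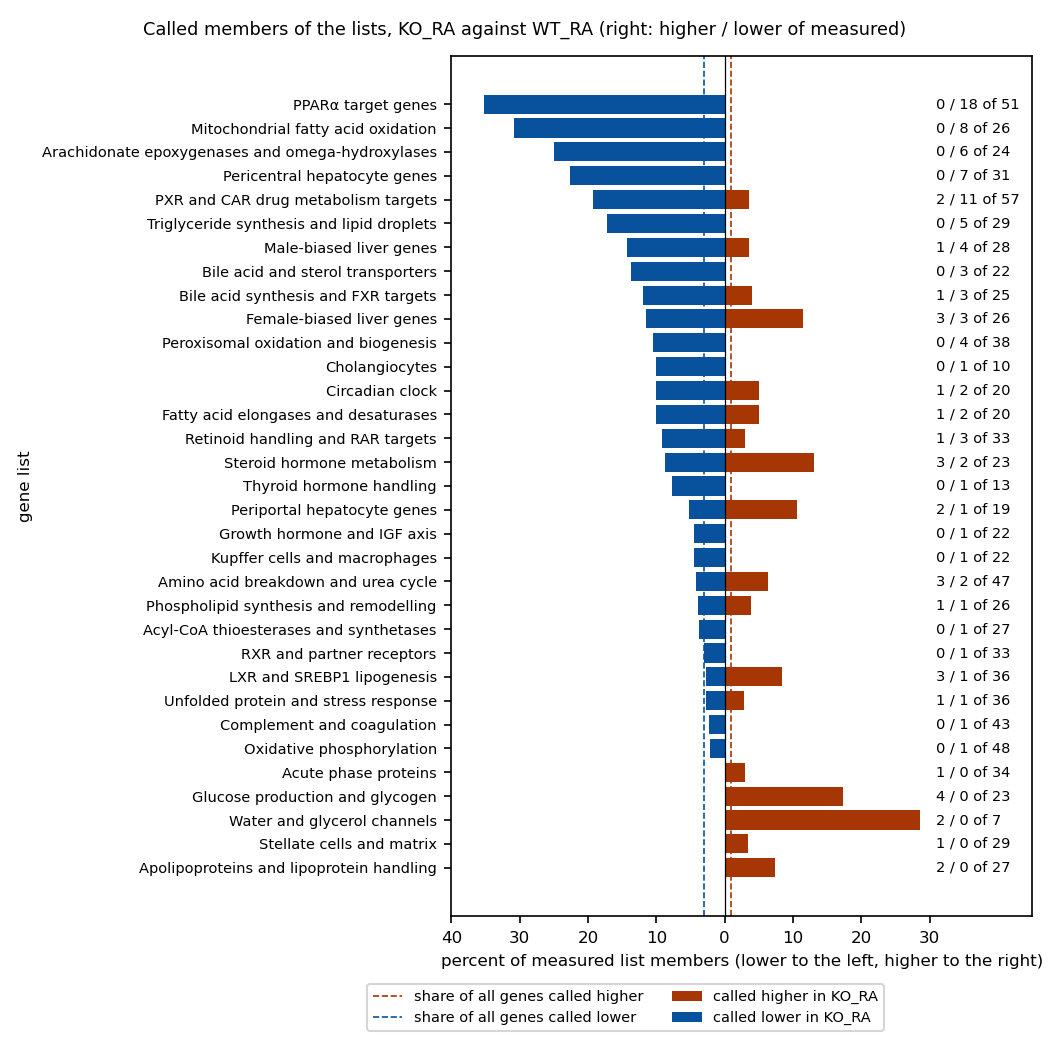
Share of measured list members called lower (bars to the left) or higher (bars to the right) in KO_RA than in WT_RA, in percent (x axis), for the lists with a called member (y axis), with the counts at the right. Dashed lines give the shares of all genes, 3.03% lower and 0.928% higher, and PPARα targets hold the longest bar to the left with 18 of 51.

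Lipid synthesis genes gave calls in both directions. Of 36 genes of the LXR and SREBP1 program, 3 were higher and 1 lower, beside 0.928% and 3.03% of all genes. The median was 0.08, or 0.15 without WT_RA 3 and 0.15 after a further quantile normalization. Scd2, a stearoyl-CoA desaturase that is low in adult liver, read 5.41, 5.58 and 5.77 in WT_RA and 8.17, 7.10 and 9.09 in KO_RA. The KO_RA arrays varied widely but all lay above WT_RA, and Scd2 rose by 2.54 ± 0.45 (adjusted p = 0.0105), 5.80-fold. Its dimmer probe sets differed by 1.86 and 0.77 without passing the test over probe sets. Scd1, the main desaturase of the liver, differed by 0.66 ± 0.35 (adjusted p = 0.356), and Fasn, the fatty acid synthase, by 0.61 ± 0.30 (adjusted p = 0.311). The receptor gene Nr1h3 (LXRα) differed by 0.32 ± 0.12 and was not called. The calls of Acaca, acetyl-CoA carboxylase (0.52), Pklr, the liver pyruvate kinase (1.04), and Lpcat3, which remodels phospholipids (-0.55), were lost with 1 array left out, Acaca without WT_RA 1, WT_RA 3, KO_RA 1 or KO_RA 3 (adjusted p up to 0.101), Pklr in 7 of the 12 fits, all but those without WT 1, WT 3, KO 1, KO 2 and KO_RA 2 (adjusted p up to 0.151) and Lpcat3 in 7 of the 12 fits, all but those without WT 1, WT 3, KO 1, KO 2 and KO 3 (adjusted p up to 0.140).

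The mean differences of cholesterol synthesis genes shared a direction, without calls. All 22 measured genes had a positive difference, with a median of 0.36 beside 0.01 over all genes, but 0 of them were called by limma and 6 had an unadjusted p under 0.05. The gene with the smallest p was Tmem97 (0.37 ± 0.11, adjusted p = 0.0920), which was called without WT_RA 1 (adjusted p = 0.0449), with array weights (adjusted p = 0.0276) and after a further quantile normalization (adjusted p = 0.0333). The median stayed between 0.26 and 0.53 with 1 array left out, and on the normal diet it was 0.12. It was 0.42 after a further quantile normalization and 0.33 with the arrays centred on their median. The list's median level, centred per gene over all arrays, was 0.14, -0.001 and -0.21 on WT_RA 1 to 3. On KO_RA 1 to 3 it was 0.56, -0.005 and 0.72, so KO_RA 2 lay within the WT_RA range. The shared sign is a description, and no test of the list was made.

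Among 20 elongases and desaturases, Elovl2, which elongates polyunsaturated chains, fell by 0.89 ± 0.12, and Hacd1, an acyl-CoA dehydratase, fell by 1.48 ± 0.13, both in all 12 fits. Elovl3 read 8.35, 7.42 and 7.24 in WT_RA and 6.80, 6.16 and 6.55 in KO_RA. Its groups did not overlap, but the difference of -1.17 ± 0.33 was not called (adjusted p = 0.0769), though it was without KO 1 or KO 2 (adjusted p = 0.0354 and 0.0407) and with the replicate block (adjusted p = 0.0253). Without added RA it read 11.76, 11.59 and 11.82 in WT and 9.60, 8.20 and 8.88 in KO (difference -2.83, adjusted p = 0.00197). Of 29 genes of triglyceride synthesis and lipid droplets, 5 were lower, and of these only Fitm1 held in all 12 fits. The others were Plin5 and Plin4, Gpat4, which starts glycerolipid synthesis (-0.73), and Abhd5, a lipase activator (-0.50). The calls of Gpat4 and Abhd5 were lost with 1 array left out, Gpat4 without WT_RA 1, WT_RA 2, KO_RA 1 or KO_RA 3 (adjusted p up to 0.0997) and Abhd5 in 9 of the 12 fits, all but those without WT 1, WT 3 and KO 1 (adjusted p up to 0.180).

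Of 27 genes of lipoproteins and their handling, 2 were higher and 0 lower. Apoa4, an apolipoprotein secreted with triglyceride-rich particles, read 11.54, 11.49 and 11.53 in WT_RA and 12.69, 12.54 and 12.70 in KO_RA. The 2 groups were tightly clustered and apart, and Apoa4 rose by 1.12 ± 0.20 (adjusted p = 0.0101), with 1.46 at its second probe set. Vldlr, a receptor for triglyceride-rich lipoproteins, read 5.95, 5.45 and 5.47 in WT_RA and 6.89, 6.69 and 6.65 in KO_RA and rose by 1.12 ± 0.16 (adjusted p = 0.00290). Both were higher in all 12 fits. Pla2g6, a phospholipase of membrane lipids, rose by 1.06 ± 0.19.

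Of 25 genes of bile acid synthesis and FXR response, 1 was higher and 3 lower, the latter being Amacr, Cyp2c70 and Abcb4. Cyp8b1, the sterol hydroxylase of cholic acid synthesis, read 10.64, 9.99 and 8.27 in WT_RA and 11.41, 11.66 and 11.49 in KO_RA, against 11.47, 12.02 and 11.95 in WT and 11.80, 11.81 and 12.01 in KO on the normal diet. WT_RA was the low group, with WT_RA 3 the lowest array, and the rise of 1.89 ± 0.43 (adjusted p = 0.0320) was not called without WT_RA 2, KO_RA 1, KO_RA 2 or KO_RA 3 (adjusted p up to 0.0958), nor with the 6 RA arrays alone. Without WT_RA 3 the rise was 1.21 (adjusted p = 0.0105). Cyp7a1, the rate-limiting enzyme of bile acid synthesis, read 10.34, 9.08 and 9.24 in WT_RA and 9.43, 9.82 and 10.46 in KO_RA, and the overlapping groups differed by 0.35 ± 0.44 (adjusted p = 0.742). Nr0b2 (SHP), the repressor induced by FXR, and Abcb11, the bile salt export pump, differed by -0.68 ± 0.36 and 0.10 ± 0.12 and were not called.

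Of 22 transporters of bile acids and sterols, 3 were lower and 0 higher, beside 3.03% and 0.928% of all genes. Abcc3, the basolateral exporter of conjugated bile acids and bilirubin, read 9.85, 10.13 and 9.25 in WT_RA and 7.91, 8.04 and 8.34 in KO_RA. It did not overlap between the groups and fell by 1.65 ± 0.27 (adjusted p = 0.00638). Abcg2, which exports drugs and urate, fell by 0.89 ± 0.15, and Abcb4, which moves phosphatidylcholine into bile, by 0.66 ± 0.15. The call of Abcb4 was lost without WT_RA 1, WT_RA 2, KO_RA 1, KO_RA 2 or KO_RA 3 (adjusted p up to 0.135), whereas Abcc3 and Abcg2 held in all 12 fits.

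Of 13 genes of thyroid hormone handling, 1 was lower and 0 higher. Dio1, the deiodinase that activates and clears thyroid hormone, read 9.79, 9.06 and 7.02 in WT_RA and 4.54, 4.17 and 4.43 in KO_RA. The WT_RA arrays varied widely, with WT_RA 3 the lowest, but all lay above the KO_RA arrays, which were below the lower quartile of the array, and the fall of 4.24 ± 0.75 (adjusted p = 0.0105) was the largest of all called genes. On the normal diet Dio1 read 6.17, 6.77 and 9.41 in WT and 4.94, 5.14 and 5.31 in KO and was not called (adjusted p = 0.165). There too all KO arrays lay below all WT arrays, and the knockout effect on Dio1 was not called different between the diets. Thrb, Thra and Thrsp, the thyroid hormone receptors and a lipogenic target, differed by 0.36, 0.28 and -1.27 and were not called, except for Thrb without KO_RA 2 (adjusted p = 0.0482).

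Of 22 genes of the growth hormone and IGF axis, 1 was lower and 0 higher. This was Igfbp2, a circulating binding protein of insulin-like growth factors, which read 11.42, 11.24 and 10.21 in WT_RA and 7.93, 8.15 and 8.18 in KO_RA and fell by 2.87 ± 0.29 (adjusted p = 4.07e-04). The 3 KO_RA arrays were close together, all below the lowest WT_RA array. Sult1e1, the estrogen sulfotransferase, read 5.20, 5.78 and 6.99 in WT_RA and 7.87, 10.55 and 9.92 in KO_RA. Both groups were widely spread without overlapping, and Sult1e1 rose by 3.46 ± 0.61 (adjusted p = 0.0101). Igfbp2 and Sult1e1 were also called on the normal diet, at -3.14 and 3.77.

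Aqp4, a water channel, showed the largest rise. It read 3.59, 3.79 and 3.63 in WT_RA, near the floor of the array, and 8.37, 7.81 and 9.04 in KO_RA, a rise of 4.73 ± 0.24 (adjusted p = 2.01e-06), and its second probe set rose by 3.14. On the normal diet it read 5.89, 5.48 and 5.55 in WT and 8.48, 8.58 and 8.20 in KO, so that KO and KO_RA lay in the same range and WT_RA was the lowest group. The difference between the diets in the knockout effect did not pass the test (adjusted p = 0.0777). Of 28 genes that are higher in male liver, 4 were lower and 1 higher in KO_RA, and of 26 female-biased genes 3 were lower and 3 higher. The lower male-biased genes were Obp2a, Igfbp2, Ugt2b1 and Cyp2j5, and the higher one was Susd4, a membrane complement regulator (1.22), not called without WT_RA 3, KO_RA 1, KO_RA 2 or KO_RA 3 (adjusted p up to 0.0951). Among female-biased genes Aqp4, Sult1e1 and Vldlr were higher, and Obp2a, Trim24 and Rtn4, a protein of the tubular endoplasmic reticulum (-1.45), were lower. The call of Rtn4 was lost without WT 2, WT_RA 1, WT_RA 2, KO_RA 1, KO_RA 2 or KO_RA 3 (adjusted p up to 0.114). Obp2a stood in both lists under different names, so it counts in both and its label of sex bias is not settled here.

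Further rises in all 12 fits were those of Pcp4l1 (2.52), Cav1, the scaffold of caveolae (1.46), and Tspyl4 (1.45). Csad, which makes the taurine precursor hypotaurine, read 8.82, 7.50 and 7.56 in WT_RA and 10.75, 10.90 and 9.76 in KO_RA and rose by 2.51 ± 0.51 (adjusted p = 0.0199), with WT_RA 1 closest to the KO_RA arrays. Tff3, a secreted trefoil peptide, rose by 2.02, Camk1d, a calcium-dependent kinase, by 1.70, Dnase2a, a lysosomal nuclease, by 1.63, and Rcn2, a calcium-binding protein of the secretory pathway, by 1.57. These calls were lost with 1 array left out, Csad without WT_RA 2, WT_RA 3, KO_RA 1 or KO_RA 2 (adjusted p up to 0.0869), Tff3 without WT_RA 3 or KO_RA 3 (adjusted p up to 0.0648), Camk1d without WT_RA 3 or KO_RA 1 (adjusted p up to 0.0655), Dnase2a in 7 of the 12 fits, all but those without WT 1, WT 2, WT_RA 1, KO 1 and KO 2 (adjusted p up to 0.133) and Rcn2 in 7 of the 12 fits, all but those without WT 1, WT 2, KO 1, KO 2 and KO 3 (adjusted p up to 0.142).

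The start region of Csad at chr15:102188994-102189293 (minus strand) of GRCm38.p6 is shown as that of a gene that rose and holds a DR1 match, in capitals, which begins 7 bases after the start site.
Csad: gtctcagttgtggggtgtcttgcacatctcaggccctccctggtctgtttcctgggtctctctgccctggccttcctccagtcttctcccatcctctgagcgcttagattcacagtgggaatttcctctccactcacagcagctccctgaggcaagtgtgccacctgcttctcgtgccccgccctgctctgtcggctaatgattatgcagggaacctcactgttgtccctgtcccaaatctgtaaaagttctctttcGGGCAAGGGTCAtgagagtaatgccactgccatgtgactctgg

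Among the 15 largest falls were also Slc13a3, a dicarboxylate transporter (-2.30), Gdpd3, a lysophospholipase (-2.33), Cnmd, chondromodulin (-2.14), Dclre1a, a nuclease of DNA cross-link repair (-2.04), and Gas6, the ligand of TAM receptor kinases (-2.02). Gas6 read 7.91, 8.18 and 8.39 in WT_RA and 6.28, 6.38 and 5.77 in KO_RA, with no overlap. The second probe set of Dclre1a differed by 0.02, and 2 of the 4 probe sets of Slc13a3 differed by -0.13 and -0.11. The call of Gdpd3 was lost without WT_RA 1, KO_RA 1 or KO_RA 3 (adjusted p up to 0.0691), and that of Slc13a3 without WT_RA 2, WT_RA 3, KO_RA 1 or KO_RA 3 (adjusted p up to 0.0729).

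The promoter-proximal windows were searched on both strands for DR1 (GGNCANNGGNCA), DR4 (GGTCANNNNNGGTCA) and DR5 (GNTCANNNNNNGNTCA), where N is any base. The windows came from RefSeq (GRCm38.p6) for 9887 of 12393 genes. A DR1 match was present in 2.5% of all windows, in 7 of 323 of the lower genes (2.17%) and in 3 of 93 of the higher genes (3.23%). A DR5 match was present in 0.738% of all windows, in 6 of 323 of the lower (1.86%) and in 2 of 93 of the higher genes (2.15%). DR4 matched 4 windows, none of a called gene. These shares are descriptions of letters in short windows and do not locate receptor binding.

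Of 20 clock genes, 2 were lower and 1 higher, beside 3.03% and 0.928% of all genes. Nfil3, a repressor of D-box genes, read 8.82, 9.11 and 8.49 in WT_RA and 7.42, 7.40 and 7.82 in KO_RA and fell by 1.27 ± 0.17 (adjusted p = 0.00248). Cry1, a core repressor of the clock, read 4.83, 5.39 and 5.96 in WT_RA and 4.13, 4.17 and 4.19 in KO_RA, close to the floor, and fell by 1.23 ± 0.21 (adjusted p = 0.00875). Neither overlapped between the groups, and both were at 7.57, 7.33 and 7.11 (Nfil3) and 4.45, 4.17 and 4.10 (Cry1) in WT, so that WT_RA was the high group. Bhlhe40, a repressor of clock genes, rose by 0.57, a call lost without WT_RA 2, WT_RA 3, KO_RA 2 or KO_RA 3 (adjusted p up to 0.106). Nr1d1 (REV-ERBα), Per2 and Dbp, which also cycle daily, differed by 1.27, -0.83 and 0.73 and were not called. Nr1d1 was called without KO 1, KO 3 or KO_RA 3 (adjusted p = 0.0256, 0.0202 and 0.0404), and Dbp without WT_RA 1 (adjusted p = 0.0339), and Per2 differed by -0.50 without WT_RA 3. The times at which livers were taken are not given in the sources used here.

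Glucose and glycogen genes were higher for 4 of 23 and lower for 0, beside 0.928% and 3.03% of all genes. The higher genes were Ugp2, which makes UDP-glucose (0.69), Khk, fructokinase (0.72), Pklr and Pygl, glycogen phosphorylase (0.45). The count was 0 without WT_RA 3 and 0 without KO_RA 3, and calls were lost with 1 array left out, Ugp2 without WT_RA 1, WT_RA 3, KO_RA 2 or KO_RA 3 (adjusted p up to 0.0876), Khk without WT_RA 2, WT_RA 3, KO_RA 1 or KO_RA 3 (adjusted p up to 0.133) and Pygl in 9 of the 12 fits, all but those without WT 1, KO 1 and KO 2 (adjusted p up to 0.121). Of 47 genes of amino acid breakdown, 3 were higher and 2 lower, and 0 were called without WT_RA 3. Beside Csad and Hal, Gldc, which cleaves glycine, was higher (1.02), and Prodh, proline dehydrogenase (-0.65), and Dpys, dihydropyrimidinase (-0.34), were lower. Calls were lost with 1 array left out, Gldc without WT_RA 1 or WT_RA 3 (adjusted p up to 0.0522), Prodh without WT_RA 1, WT_RA 2, WT_RA 3, KO_RA 1 or KO_RA 3 (adjusted p up to 0.143) and Dpys in 9 of the 12 fits, all but those without WT 1, KO 1 and KO_RA 2 (adjusted p up to 0.164). Of 36 stress response genes and 34 acute phase genes, 2 and 1 were called. Atf5, a stress-induced transcription factor, rose by 1.16, Creb3l3, a membrane-bound transcription factor of hepatocytes, fell by 0.59 and Leap2, an antimicrobial peptide, rose by 1.08. These calls were lost with 1 array left out, Atf5 without WT_RA 3, KO_RA 1 or KO_RA 2 (adjusted p up to 0.0829), Creb3l3 without WT_RA 1, WT_RA 3, KO_RA 1 or KO_RA 2 (adjusted p up to 0.0818) and Leap2 without WT_RA 1, WT_RA 2, WT_RA 3, KO_RA 1 or KO_RA 2 (adjusted p up to 0.112). Orm2, an acute phase glycoprotein, read 10.50, 11.85 and 12.17 in WT_RA and 11.77, 11.82 and 11.80 in KO_RA and differed by 0.29 ± 0.49 (adjusted p = 0.814).

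Markers of other cell types gave few calls. Of 22 markers of Kupffer cells and macrophages, 1 was lower and 19 had a negative difference, with a median of -0.33, or -0.07 without WT_RA 3. The median over the list of each gene's level, centred over all arrays, was -0.10, 0.05 and 0.56 on WT_RA 1 to 3 and -0.11, -0.15 and -0.07 on KO_RA 1 to 3, so WT_RA 3 was the high array. The lower gene was Cd163, a scavenger receptor, at 6.99, 7.44 and 7.67 in WT_RA and 6.49, 6.79 and 6.45 in KO_RA (-0.79), a call lost without WT 2, WT_RA 2, WT_RA 3, KO 3, KO_RA 1 or KO_RA 3 (adjusted p up to 0.144). Clec4f and Adgre1, which define these cells, differed by -0.36 and -0.36 and were not called. Of 38 interferon response genes 0 were called by limma under RA, with 2 at an unadjusted p under 0.05. Prom1, a marker of bile duct cells, fell in all 12 fits by 1.40, the only called gene of 10 such markers. In stellate cells 1 of 29 markers was called, Mmp14, a matrix protease, with 1.10, not called without WT_RA 1, WT_RA 3 or KO_RA 1 (adjusted p up to 0.0691). Differences were positive for 15 of 16 markers of T and NK cells and negative for 1, with a median of 0.11, or 0.15 without WT_RA 3. Markers of T and NK cells, B cells, neutrophils, endothelial cells, red cells, and pancreas or fat gave 0 calls by limma. At an unadjusted p under 0.05 these lists held 1, 1, 0, 5, 1 and 0 genes. What part these cells have in the results above was not tested.

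Alas2, the heme synthesis enzyme of red cell precursors, read 10.26, 6.72 and 9.51 in WT_RA and 7.61, 6.38 and 7.60 in KO_RA, and the difference of -1.64 ± 0.67 was within the spread of the overlapping groups (adjusted p = 0.221). It was called lower without WT_RA 2 (adjusted p = 0.00372), with a difference of -2.69.

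The same knockout could be compared on the normal diet, in arrays not shared with the RA comparison though fitted in 1 model. There 163 genes were called (1.32%), 60 higher (0.484%) and 103 lower (0.831%). Leaving out WT 2 gave 51 calls, KO 2 gave 66, WT 1 gave 71, KO 3 gave 86 and WT 3 gave 102. KO 2 was the highest of the 12 arrays for Kupffer cells and macrophages (centred level 1.59), antigen presentation (1.86) and the interferon response (1.13). It was not the highest for every cell type, and for T and NK cells KO 1 was at 0.23 and KO 2 at 0.13. The part of other cell types in the calls was not tested. Of the 490 genes called under RA, 413 (84.3%) had the same sign on the normal diet, beside 60.5% of all genes. The share was 87.7% for the 375 lower genes and 73.0% for the 115 higher genes. In the same direction 83 genes were called on both diets, 16.9% of the calls under RA and 50.9% of those on the normal diet. Only 1 gene was called in opposite directions. Rpgrip1, a protein of photoreceptor cilia, read 8.35, 5.78 and 6.58 in WT_RA and 9.08, 9.14 and 8.84 in KO_RA (2.12), but 9.40, 8.99 and 8.98 in WT and 7.43, 6.36 and 6.23 in KO (-2.45). Its other 3 probe sets lay near the floor with differences of -0.04 to -0.10, and its call under RA was lost in 7 of the 12 fits, all but those without WT 1, WT_RA 1, KO 1, KO 2 and KO 3 (adjusted p up to 0.129).

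The knockout effect was called different between the diets for 1 gene (0.00807%), Obp2a, a lipocalin that carries small lipophilic molecules. It read 7.77, 7.16 and 7.12 in WT_RA and 4.19, 4.36 and 4.28 in KO_RA, and 5.28, 5.07 and 5.59 in WT and 4.77, 4.59 and 4.53 in KO. WT_RA thus stood above the other groups, and the effect was -3.08 under RA and -0.68 on the normal diet, a difference of -2.39 (adjusted p = 0.00503). With 1 array left out, the number of such genes was 14 without KO 1, 7 without WT_RA 1, 6 without WT 2, 5 without KO_RA 3, 3 without KO_RA 2, and 2 without WT 1 or WT_RA 3. Dclre1a, at 9.57, 9.41 and 8.99 in WT_RA and 7.08, 6.89 and 7.88 in KO_RA, read 6.63, 7.49 and 6.57 in WT and 7.61, 7.07 and 7.24 in KO, and Gas6 was at 6.67, 6.88 and 7.05 in WT and 6.35, 6.32 and 6.503 in KO. Their effects on the diets were -2.04 and 0.41, and -2.02 and -0.48, and the differences missed the threshold (adjusted p = 0.0662 and 0.0611). Among genes called under RA with a size of at least 1, 43 differed by less than 0.5 on the normal diet, which is not a test of a difference between the diets.

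**Figure D4:**
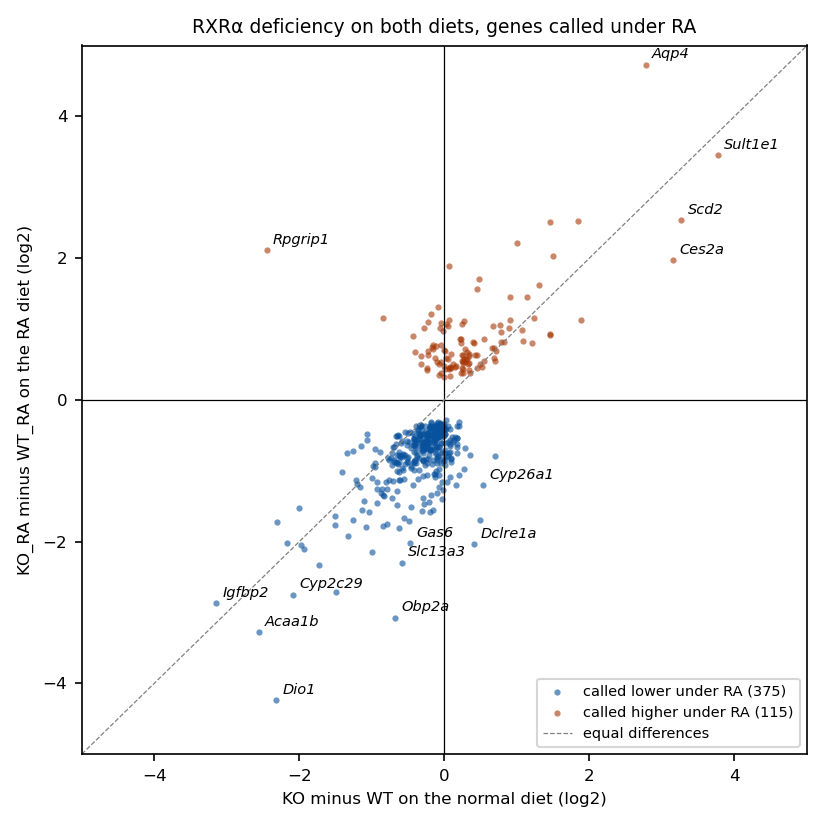
Knockout difference on the normal diet (x axis, log2) against that on the RA diet (y axis, log2) for the 490 genes called under RA, with the dashed line of equal differences. Most points lie in the lower left and upper right quadrants (413 of 490), Rpgrip1 lies in the upper left, and Obp2a and Dclre1a lie far below the dashed line.

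**Figure D5:**
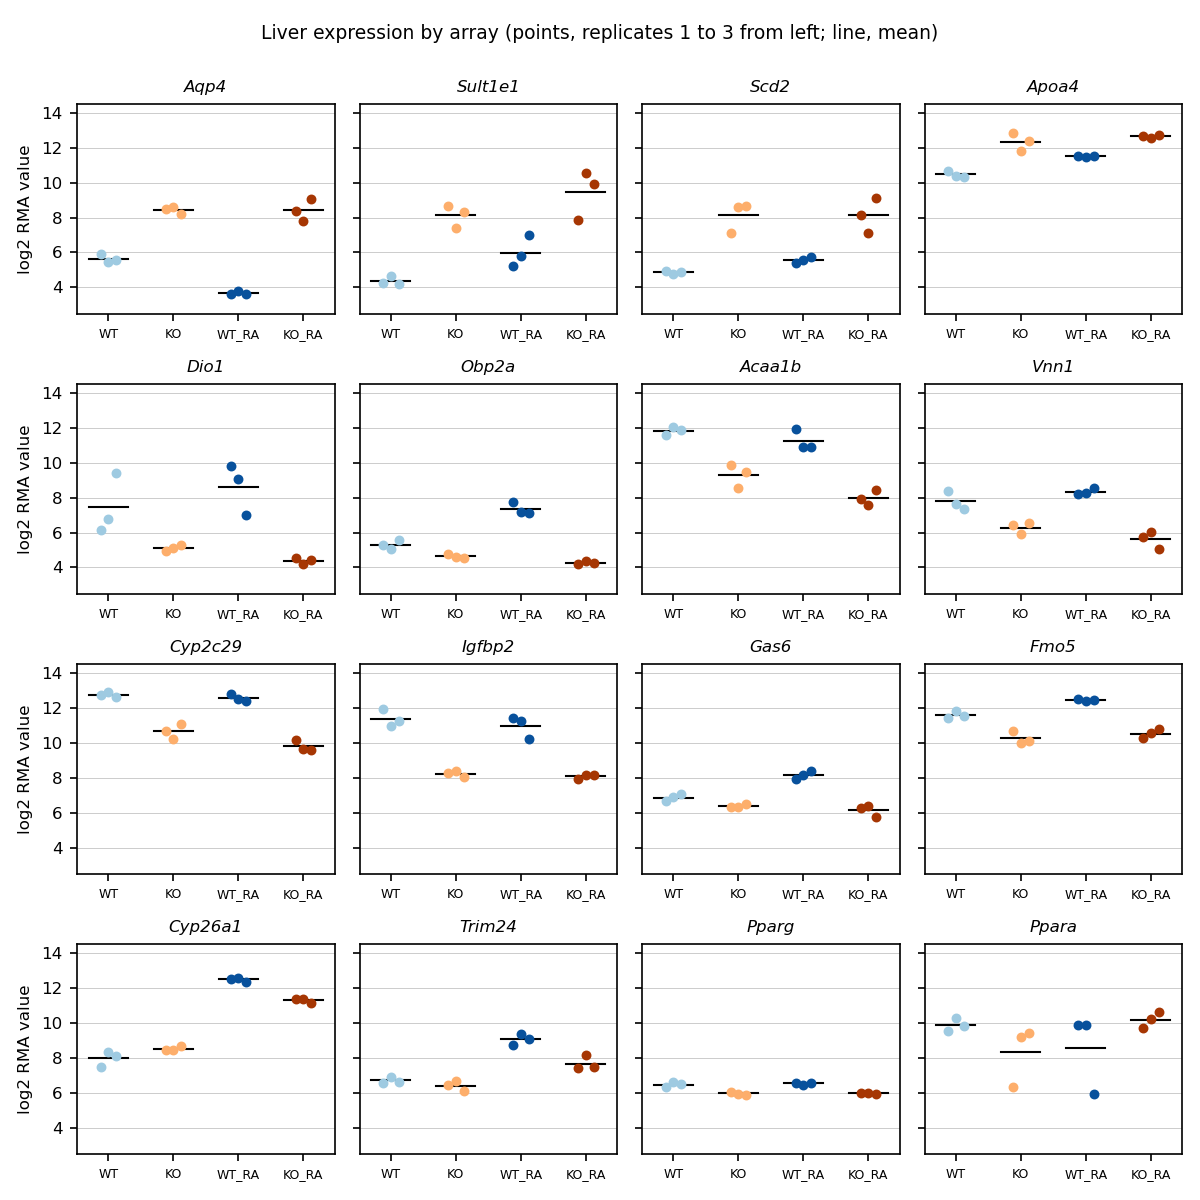
log2 RMA values (y axis) of 16 genes on the 3 arrays of each group (points, replicates 1 to 3 from left, line at the mean). KO_RA lies below WT_RA without overlap for Dio1, Obp2a, Acaa1b, Vnn1, Cyp2c29, Igfbp2, Gas6, Fmo5, Cyp26a1, Trim24 and Pparg and above it for Aqp4, Sult1e1, Scd2 and Apoa4, while Ppara overlaps, with WT_RA 3 and KO 1 as the low arrays.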

How the data were processed

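Liver RNA was measured on 12 Affymetrix arrays, 3 per group, with groups and replicate numbers taken from the sample titles. The authors deposited log2 values per probe set, and the submitters' processing notes name RMA and Partek 6.11, while the methods of the study name MAS5 for its own analysis. RMA brings the probe intensities of all arrays to a common distribution, so changes are relative within an array. The medians of the deposited probe set values still differed slightly between arrays. Scanner files were not used here, the background correction was taken as deposited, and the number of arrays limits the precision.

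Of 22690 probe sets, 64 were controls, 20380 had 1 gene symbol, 691 several and 1555 none in the platform annotation. For genes with several probe sets, the one with the highest overall mean was kept, without a filter on dim probe sets. Group means of the 12 arrays were estimated in 1 limma 3.58.1 model (R 4.3.3, moderated and two-sided, 8 residual degrees of freedom), which shares the spread over all groups. Adjusted p-values are those of Benjamini and Hochberg over the 12393 genes of a contrast, and the threshold was 0.05.

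Genes named are the RXR genes and called partners, the 15 largest rises and falls among genes whose groups did not overlap, at most 4 called members per list (48 gene lists) and genes named by earlier results, and further list members were chosen for their role. The comparison, the members and the lists were chosen with earlier results of these data known. Lists are described by counts and medians, without a test. Start regions were taken from RefSeq (GRCm38.p6). The alternatives were a replicate block, 2 scalings, 2 filters on dim genes, the mean of all probe sets, a trended prior, array weights, leaving out the 2 arrays that stood apart, the 6 RA arrays alone, and each array left out in turn.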

Additional observations from a re-analysis of the deposited data

Results flagged for a closer look

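Obp2a was the only gene whose knockout effect differed between the diets in limma's test of the difference. The effect was -3.08 under RA and -0.68 on the normal diet, and the difference was -2.39 (adjusted p = 0.00503), with KO_RA below WT_RA in all 3 arrays of each group. Its KO and KO_RA values lay below the lower quartile of the arrays.

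Among the 2246 probe sets with several or no gene symbols, which the comparisons above did not use, 33 were called between KO_RA and WT_RA, 5 higher and 28 lower. These probe sets were tested apart and are not named here.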

How the results depend on the processing

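Leaving out 1 array gave 170 to 599 genes called under RA, 39 to 149 higher and 131 to 458 lower. For the normal diet the range was 51 to 217, and for the difference between the diets 1 to 14. Without WT_RA 3 and KO 1 together, 312 genes were called (76 higher and 236 lower), with 266 on the normal diet and 12 for the difference. With array weights the counts were 1064 (307 higher and 757 lower), 1734 and 247. The other alternatives gave 393 to 516 calls under RA. The sample numbers were not used to pair the arrays in the main fit. Deviations of same-numbered KO_RA and WT_RA arrays correlated at -0.12 to 0.27, and 5 of 18 such pairs over all groups exceeded 0.1. With 3 arrays per group, these correlations do not settle whether same-numbered arrays belong together. The replicate block gave 393 calls under RA, 362 of them shared, 98 on the normal diet and 2 for the difference. For the difference, centring gave 5, the mean of all probe sets 6 and the median filter 0, where Obp2a was too dim to be tested. Of the 490 genes, 127 were called in all fits that tested them, and 3 changed sign in some fit. Changes of sign concerned Cyp2j5, Hsd17b11 and Pbrm1 (0.0519, 0.925 and 0.117 with the mean of all probe sets) and genes that were not called: Rxrb (0.0426 after quantile normalization, 0.00118 without the 2 arrays, -0.0975 to 0.00118 with 1 array left out), Rxrg (-0.00250, -0.00200 and -0.00200 to 0.0945 likewise), Rarb (0.0213 with array weights, -0.199 to 0.149), Hadha (-0.273 to 0.0189) and Orm2 (-0.214 to 0.623). The cause of these changes was not tested.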

Other observations

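Some gene families outside the lists were looked at after their values were seen, and are given as descriptions. Hosts of small nucleolar RNAs had 3 lower members of 7 (3.03% of all genes were lower), Gas5 (-0.88), Snhg6 (-1.05) and Snhg8 (-0.71), with a median of -0.60 under RA and -0.01 on the normal diet. Gas5 read 10.13, 10.07 and 10.44 in WT_RA and 9.20, 9.52 and 9.28 in KO_RA, and the call was lost without WT_RA 1, WT_RA 3, KO_RA 1 or KO_RA 3 (adjusted p up to 0.0957). Its other probe sets differed by -0.87, 0.13 and -0.10. Snhg6 was not called in 9 of the 12 fits, all but those without WT 1, WT 2 and KO 1 (adjusted p up to 0.156), and Snhg8 in 10 of the 12 fits, all but those without WT 1 and WT 2 (adjusted p up to 0.179). Of 47 cytosolic ribosomal proteins 43 (91.5%) and of 74 mitochondrial ones 66 (89.2%) had a negative difference, beside 47.6% of all genes, with medians of -0.21 and -0.20. Only 4 and 3 of them were called lower, beside 3.03% of all genes. Rps27l (-0.50) and Mrps21 (-0.50) were called in all 12 fits with 1 array left out, and the other calls were lost, Rpl22 in 9 of the 12 fits, all but those without WT 1, WT 3 and KO 1 (adjusted p up to 0.154), Rps19 without WT_RA 2, WT_RA 3 or KO_RA 3 (adjusted p up to 0.0947), Rps26 in 10 of the 12 fits, all but those without WT 1 and KO 1 (adjusted p up to 0.168), Mrpl36 without WT 2, WT_RA 1, WT_RA 2, WT_RA 3, KO_RA 1 or KO_RA 3 (adjusted p up to 0.141) and Mrps18c without WT_RA 1, WT_RA 2, WT_RA 3, KO_RA 1, KO_RA 2 or KO_RA 3 (adjusted p up to 0.129). After a further quantile normalization the medians were -0.15 and -0.13 for the ribosomal proteins and -0.57 for the RNA hosts, and with the arrays centred on their median -0.24, -0.22 and -0.63, beside 0.01 for all genes as deposited.

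Sirt1, a deacetylase that senses NAD, read 6.94, 7.04 and 7.40 in WT_RA and 6.02, 6.46 and 5.91 in KO_RA and fell by 0.99 ± 0.16 (adjusted p = 0.00596). Cipc, an inhibitor of the CLOCK protein, fell by 1.57, Gpx1, a glutathione peroxidase, by 0.55 and Fabp2, the intestinal fatty acid binding protein, by 0.97, while Lrp2, an endocytic receptor, rose by 0.80. These calls held in all 12 fits with 1 array left out.

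Of the remaining lists, water and glycerol channels had 2 higher and 0 lower of 7 genes called, beside 0.928% and 3.03% of all genes, steroid hormone metabolism had 3 higher and 2 lower of 23, phospholipid synthesis 1 higher and 1 lower of 26, acyl-CoA thioesterases and synthetases 0 higher and 1 lower of 27, and complement and coagulation 0 higher and 1 lower of 43. Besides Hsd17b11 below, the called genes not described above were Aqp9, a glycerol channel (0.37), Hsd17b10 (0.64) and Hsd11b1 (0.38), which convert steroids, and Mbl2, mannose-binding lectin (-0.63). Their calls were lost with 1 array left out, Aqp9 without WT_RA 2, WT_RA 3, KO_RA 1, KO_RA 2 or KO_RA 3 (adjusted p up to 0.110), Hsd17b10 without WT_RA 1, WT_RA 3, KO_RA 2 or KO_RA 3 (adjusted p up to 0.0754), Hsd11b1 without WT_RA 1, WT_RA 2, WT_RA 3, KO_RA 1, KO_RA 2 or KO_RA 3 (adjusted p up to 0.129) and Mbl2 without WT_RA 2 or KO_RA 1 (adjusted p up to 0.0824). Iron and heme, the cell cycle, chemokines, cytokine signalling and antigen presentation had 0 genes called by limma. At an unadjusted p under 0.05 they had 5 of 26, 6 of 36, 3 of 27, 6 of 29 and 0 of 18, beside 17.8% of all genes. For Hsd17b11, of the steroid list, the probe set with the highest mean fell by 0.49 and another rose by 2.34, and it was the only called gene with 2 probe sets past the threshold in opposite directions. It was not called in 8 of the 12 fits, all but those without WT 1, WT_RA 3, KO 1 and KO 2 (adjusted p up to 0.164). Of 215 called genes with more than 1 probe set, 64 had a probe set of the opposite sign.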
